A study of Mus musculus with 10 samples.

Results

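HEB binding in mouse embryonic stem cells (ESCs) was compared without and with SB431542 (SB), a small molecule that inhibits the type I receptor kinases through which Nodal, activin and TGF-beta signal. The comparison set the ESC HEB region list, from untreated cells, beside the ESC+SB HEB list, from cells given 10 µM SB for 24 hours, and used regions whose ChIP peak height was at least 28 in both, because 28 is the lowest height in the list with SB. That left 14111 regions without and 16769 with SB, 30880 of the 78263 regions in the 6 lists of the series, and left out 3111 ESC HEB regions (18.1% of 17222) whose height lay between 25 and 28. A region without SB was called kept when it shared at least 1 bp with a region of the other list, and lost when it did not. A region with SB was called gained when it overlapped no untreated region of any listed height, and those that overlapped only an untreated region below 28 were counted apart.

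The cells of both groups were CGR8, an established mouse ESC line, at passages 18 to 25. They were grown on gelatin without feeders, in serum with the cytokine LIF, and each group had 1 ChIP library made with the same HEB antibody and its own input library. The titles name the SB libraries, and the dose and time come from a growth protocol shared by all samples, which describes no vehicle control. Other groups used here only to describe the regions were SMAD2/3 in untreated ESCs, and HEB and SMAD2/3 at day 4 of endoderm differentiation with 100 ng/ml Activin A, with HEB there also profiled under 10 µM SB for 48 hours.

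HEB, the product of Tcf12, belongs to the E proteins, basic helix-loop-helix factors that bind E-box DNA as dimers, and it takes part in lineage choice in many tissues. Nodal and activin bind type II and type I receptors at the membrane, the type I kinase phosphorylates SMAD2 and SMAD3, and these move with SMAD4 to DNA, where they act beside partner factors. Lefty1 and Lefty2 are Nodal antagonists and textbook targets of this signal, while Snai1 encodes a repressor of epithelial genes. Serum and the ESCs themselves supply activin and Nodal ligands, so the pathway is active in ESC culture without added ligand.

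Because 1 library stood for each group, the differences below compare these libraries, have no replicate check and carry no test. Intervals are exact Clopper-Pearson 95% intervals and cover counting error only. ChIP averages over a culture, so HEB bound in fewer cells and less HEB bound per cell cannot be told apart. The regions of 28 or more held 4434848 ChIP tags over 9504 kb without SB and 4508630 over 11875 kb with SB, against 421868 and 623593 input tags. The median region held 24 input tags without and 31 with SB. Heights have no stated scaling between libraries, so they were set side by side as percentile ranks, from 0 for the lowest to 100 for the highest. Ranks were taken separately for each library, among the 11215 pairs of overlapping kept regions only. Lost, gained and unpaired regions have no rank, so a rank is not a place in the whole list. Regions were listed at all 8 ESC identity genes chosen for the check (Pou5f1, Nanog, Esrrb, Zfp42, Tfcp2l1, Dppa5a, Utf1, Tdh) without SB and at 7 with SB, but region lists hold no expression, so the cell label was not checked by them.

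The promoters of 5 genes are printed here because a HEB region lay over the gene's 5′ end and each stands for 1 outcome: kept (Snai1 and Tdgf1), lost (Nodal) and gained (Psmg3 and Rpl12). They are RefSeq windows on GRCm38.p6 from 250 bases before to 50 bases after the gene's start, on the gene's own strand, and they were matched by symbol, since the regions themselves are on mm9. The windows are chr2:167537945-167538244 (plus strand) for Snai1, chr9:110946109-110946408 (minus) for Tdgf1, chr10:61417722-61418021 (plus) for Nodal, chr5:139826845-139827144 (minus) for Psmg3 and chr2:32961462-32961761 (plus) for Rpl12. Capitals mark the E-box letters CAGCTG or CAGGTG, searched on both strands, so that CAGGTG also appears as CACCTG.
Snai1 promoter: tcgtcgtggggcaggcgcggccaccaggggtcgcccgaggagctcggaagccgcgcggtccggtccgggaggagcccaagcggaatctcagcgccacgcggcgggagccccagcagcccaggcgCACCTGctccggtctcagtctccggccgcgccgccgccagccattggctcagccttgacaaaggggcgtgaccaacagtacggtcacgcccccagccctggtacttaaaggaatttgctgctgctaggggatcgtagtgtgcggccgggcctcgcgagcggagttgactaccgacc
Tdgf1 promoter: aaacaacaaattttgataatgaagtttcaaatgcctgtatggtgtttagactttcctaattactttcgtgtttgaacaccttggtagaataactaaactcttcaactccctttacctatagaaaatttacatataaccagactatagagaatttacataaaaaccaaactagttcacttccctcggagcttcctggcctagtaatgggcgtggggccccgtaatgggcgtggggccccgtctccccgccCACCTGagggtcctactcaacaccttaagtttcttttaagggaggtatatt
Nodal promoter: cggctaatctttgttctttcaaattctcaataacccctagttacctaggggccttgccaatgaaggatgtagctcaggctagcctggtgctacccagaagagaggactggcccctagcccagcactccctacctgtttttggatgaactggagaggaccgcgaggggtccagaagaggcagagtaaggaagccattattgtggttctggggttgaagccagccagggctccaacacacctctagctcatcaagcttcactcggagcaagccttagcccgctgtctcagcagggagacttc
Psmg3 promoter: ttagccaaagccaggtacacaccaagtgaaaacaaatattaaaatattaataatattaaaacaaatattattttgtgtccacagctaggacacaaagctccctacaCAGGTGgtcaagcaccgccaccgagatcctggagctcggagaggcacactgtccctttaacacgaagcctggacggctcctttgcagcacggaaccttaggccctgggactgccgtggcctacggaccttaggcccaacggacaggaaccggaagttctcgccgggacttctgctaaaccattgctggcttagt
Rpl12 promoter: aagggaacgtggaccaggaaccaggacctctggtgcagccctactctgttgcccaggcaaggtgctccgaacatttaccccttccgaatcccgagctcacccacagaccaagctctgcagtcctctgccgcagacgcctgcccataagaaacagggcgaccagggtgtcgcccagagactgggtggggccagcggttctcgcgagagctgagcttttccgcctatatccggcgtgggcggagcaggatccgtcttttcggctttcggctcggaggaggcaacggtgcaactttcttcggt

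Snai1, Tdgf1 and Psmg3 each held 1 such match, and Nodal and Rpl12 held none. The Snai1 and Rpl12 windows held 34 and 21 CpG dinucleotides, the Nodal window 5 and the Tdgf1 window 7. A match describes the letters of the window and does not show a bound site.

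The Lefty locus on chromosome 1 carried lower and fewer HEB regions with SB. Without SB the region over the 5′ end of Lefty1 (182863286 to 182865640) had a height of 449, and with SB the overlapping region (182863775 to 182864143) had 110. Its rank went from 99.5 to 90.8, its ChIP tags from 3863 to 271 and its input tags from 159 to 5. The tag enrichment, the authors' measure of ChIP over input tags, went the other way, from 24.3 to 40.2. The region narrowed from 2354 to 368 bp, which was the smallest width ratio, 0.156, of all 11215 pairs of kept regions. The authors list no gene for the narrow region. Tags follow width as well as strength, so the height and its rank are the safer pair of values here.

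Neighbouring regions moved the same way. A region at -8.93 kb from the Lefty1 summit (182854569 to 182855648, no gene listed), which overlapped a SMAD2/3 region of height 1258, went from 348 to 56.8 and from rank 99.02 to 63.3. A region at -45.01 kb, beyond Lefty2 (182817904 to 182819872) went from 209 to 56.8 and from rank 97.0 to 63.3. Next to it a region of height 103 (182819953 to 182820724) was lost, as were the Lefty2 region over the 5′ end (182822985 to 182823597, height 29.2) and a region of 34.1 farther out. The Lefty2 region stood just above the minimum without SB, and its height with SB is not known beyond its absence from a list that starts at 28. Within 10 kb of the Lefty1 and Lefty2 regions, a span chosen after the values were seen, all 5 regions that overlapped SMAD2/3 were lower or not listed with SB. At Tmem63a, a neighbouring ion channel gene, a region of 30.5 was kept at rank 9.85 and 10.6, and a region of 32.2 was gained.

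**Figure D1:**
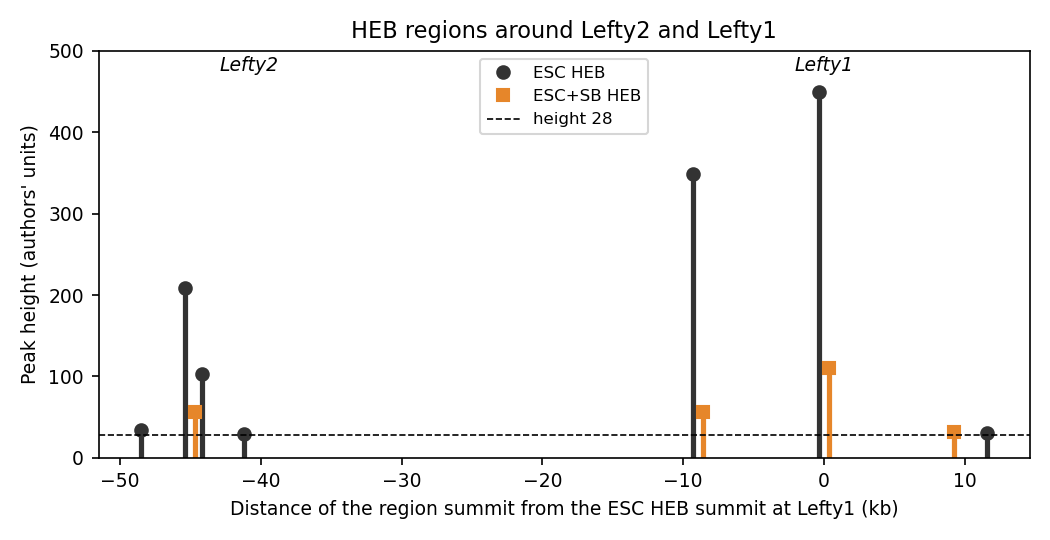
Peak height (authors' units) of each HEB region around Lefty2 and Lefty1 against the distance of its summit from the ESC HEB summit at Lefty1 (kb), with the symbols of the 2 lists drawn slightly apart. Black circles are ESC HEB, orange squares are ESC+SB HEB and the dashed line is the minimum of 28: the 3 highest regions stand at 449, 348 and 209 without SB and at 110, 56.8 and 56.8 with it.

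Snai1, the other marker gene, kept its HEB regions. The region 1578 bp from the 5′ end (chromosome 2, 167365305 to 167366607) had heights of 499 and 451 and ranks of 99.6 and 99.7. Its ChIP tags were 2592 and 2040 and its input tags 31 and 61. The tag enrichment was thus 83.6 without and 33.4 with SB although the rank was level. The region over the 5′ end (167363089 to 167363853), at the promoter printed above, went from 39.4 to 56.1 and from rank 35.9 to 62.2. Neither region overlapped SMAD2/3.

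Over the whole lists, 11426 of 14111 untreated HEB regions were kept (81.0%, 95% interval 80.3 to 81.6) and 2685 were lost (19%). With SB, 11380 of 16769 regions were kept, 1392 (8.30%) overlapped only an untreated region below 28 and 3997 were gained (23.8%, interval 23.2 to 24.5). The gained share fell to 4.03% with a minimum height of 40, to 17.4% with lists of equal length and to 9.15% within the upper 50% of each list by tag enrichment. Of the untreated regions just below the minimum, at 25 to 28, 47.0% overlapped a region with SB, against 57.9% of those at 28 to 30.

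Lost and gained regions were low ones. The median height was 33.0 for lost and 46.5 for kept regions without SB, and 31.8 for gained and 48.3 for kept regions with SB. At heights of 28 to 30, 42.1% of untreated regions were lost, and 59.4% of regions with SB were gained. At 50 to 75 the shares were 5.66% and 1.04%. Above 200, 2 of 375 untreated regions were lost (0.533%) and 0 of 253 regions with SB were gained, which allows up to 1.45%. High HEB regions that appear in 1 list alone were thus rare on either side, and most of the difference between the lists lay near the minimum.

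**Figure D2:**
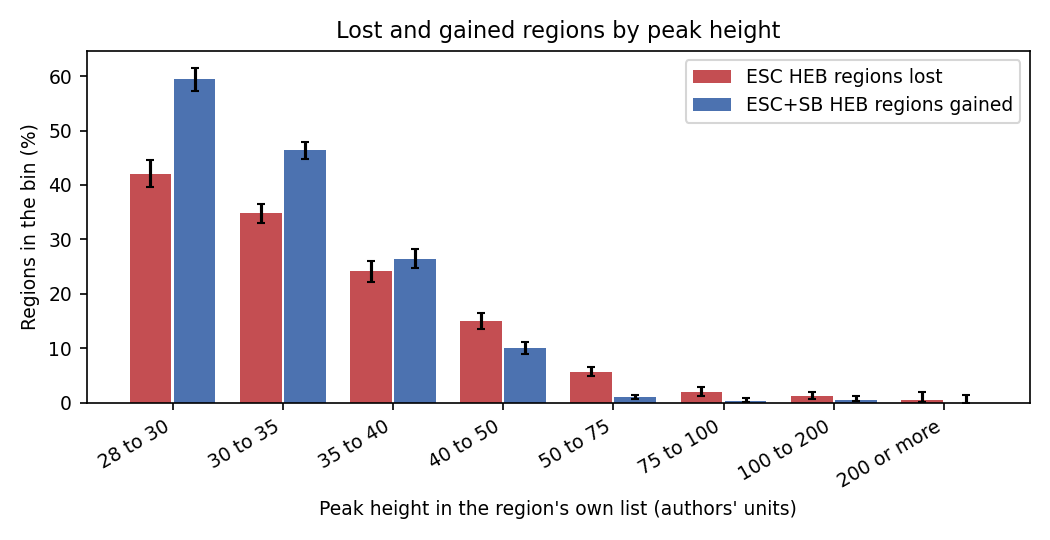
Percent of ESC HEB regions lost (red) and of ESC+SB HEB regions gained (blue) in each bin of peak height in the region's own list (authors' units), with exact 95% intervals as bars. The shares are 42.1% and 59.4% at 28 to 30 and 0.533% and 0% at 200 or more, and both are lower in each further bin except the gained share at 100 to 200 (0.555%, against 0.275% at 75 to 100).

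Lost and gained regions differed in place. Promoter-proximal regions, those within 1 kb of the 5′ end of a listed gene, were 169 of the lost (6.29%, interval 5.41 to 7.28), 18.9% of the kept and 2074 of the gained (51.9%, interval 50.3 to 53.4). Regions with no gene listed were 51.8% of the lost, 44.0% of the kept and 25.2% of the gained. The regions with SB over an untreated region below 28 stood between, at 38.3% promoter-proximal. With the untreated regions divided into 5 quintiles of height, in the lowest quintile 84.3% of promoter-proximal regions were kept (interval 81.3 to 87.1), against 51.0% of regions with no gene (48.1 to 53.9), and in the middle quintile the shares were 96.3% and 78.8%. Among regions in the upper 50% by tag enrichment, the promoter-proximal share of the gained was 29.6%.

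Input signal differed between the libraries, so each class is set beside the kept regions of its own list. With SB the median gained region had 32 input tags, a background height of 4.49 and a tag enrichment of 4.33, and the median kept region had 31, 3.71 and 7.73. Without SB the median lost region had 16 input tags, a background height of 2.29 and a tag enrichment of 8.40, and the median kept region had 26, 2.89 and 9.44. Gained regions thus held about as many input tags as kept ones of the same list, but over a smaller median width, 530 against 595 bp. The gained regions also had a higher background height and a lower enrichment, so their input signal was not level with that of the kept ones. The part of input signal in the gained regions was not tested.

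**Figure D3:**
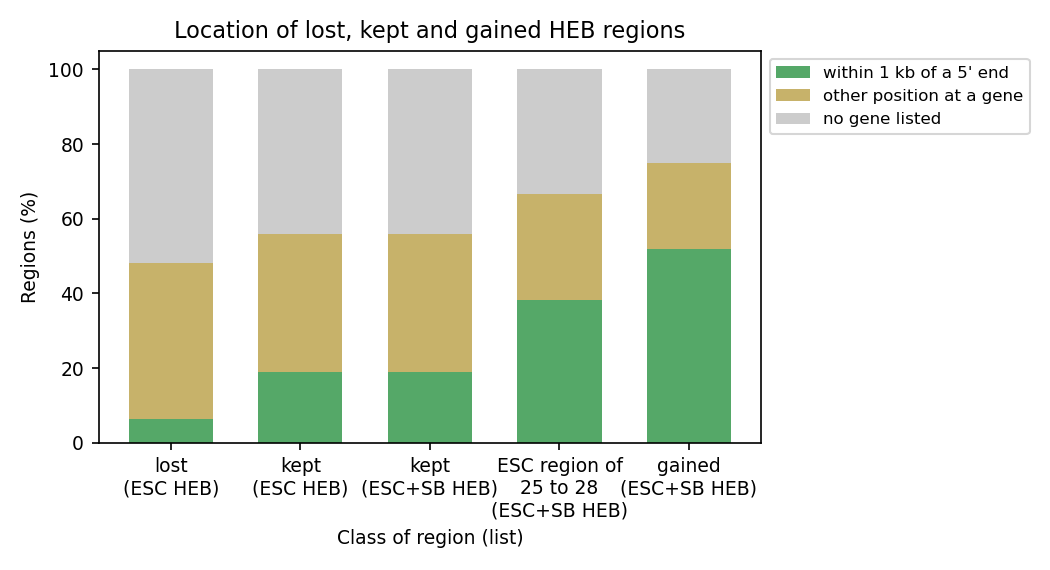
Percent of regions of each class within 1 kb of a listed gene's 5′ end (green), elsewhere at a listed gene (tan) or with no gene listed (grey), for lost and kept ESC HEB regions, kept ESC+SB HEB regions, those over an untreated region of 25 to 28, and gained regions. The green part is 6.29% of lost and 51.9% of gained regions.

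The promoter letters of the groups were also set side by side. A RefSeq window was found for 47 of 76 genes whose 5′ end lay under a lost and no kept region, 881 of 1446 genes with a kept region there and 1231 of 1880 with a gained and no kept one. CAGCTG or CAGGTG was in 38.3% of the lost, 36.5% of the kept and 30.1% of the gained windows, against 32.6% of all 22862 windows. CAGAC, the core letters of a SMAD box, searched on both strands, was in 61.7%, 47.7% and 45.9%, against 49.9% of all. The median window held 17, 20 and 23 CpG dinucleotides, against 7 in all, with a median GC content of 59.7%, 61.3%, 62.7% and 52.3%. The lost shares rest on 47 windows only.

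Lost regions overlapped SMAD2/3 less often than kept ones, and the height of the region went with this. An ESC SMAD2/3 region overlapped 10.8% of lost (interval 9.65 to 12.0), 25.9% of kept untreated and 2.88% of gained regions. With a minimum height of 40 the lost share was 19.6%. At like height the kept shares lay close together, at 60.2% with and 59.4% without SMAD2/3 in the lowest quintile, 83.4% and 82.1% in the middle one, and 99.1% and 98.2% in the highest. The intervals overlapped in 4 of the 5 quintiles and did not in the second highest, 95.8% (94.2 to 97.0) against 92.8% (91.6 to 93.9). In no quintile was the kept share lower with SMAD2/3 than without it.

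Lost and gained regions could be followed in the differentiating cells. The Endoderm HEB list overlapped 20.6% of lost, 37.8% of kept and 21.6% of gained regions. The HEB list of cells differentiated under SB overlapped 5.70% of lost, 20.7% of kept and 27.6% of gained regions. Among promoter-proximal regions that last list overlapped 18.3% of the lost, 44.2% of the kept and 42.5% of the gained, and Endoderm SMAD2/3 overlapped 24.9%, 40.7% and 36.7%. Lost regions often lay near a remaining region: 17.0% were within 1 kb and 46.8% within 10 kb of a region with SB, and 10.3% and 37.6% of gained regions lay as near to an untreated region. By chromosome the lost share ran from 16.4% (chromosome 17) to 23.5% (X), and the gained share from 13.8% (X, 20 of 145 regions, interval 8.63 to 20.5) to 28.4% (19).

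The highest lost regions at genes lay away from 5′ ends, as most lost regions did. Pld1, which encodes a phospholipase D, had the highest lost region (27936836 to 27937672 of chromosome 3, 53743 bp away from its 5′ end), and that region had a height of 221, with 1068 ChIP and 35 input tags. The other 7 genes with the highest lost regions had 97.3 to 132: 5730410E15Rik, Sfi1, Col18a1 (a basement membrane collagen), C630004H02Rik, Nrcam and Pecam1 (adhesion molecules) and Ski, which encodes a SMAD corepressor. The Sfi1 region held 1795 input tags against 1562 ChIP tags, so input exceeded ChIP there. None of the 8 was promoter-proximal, and of all lost regions at a gene 169 were promoter-proximal and 1125 were not. The Endoderm HEB list held 5 of the 8, against 20.6% of all lost and 37.8% of kept untreated regions. All lost regions had a median height of 33.0, far below these 8, and this overlap was not compared at like height. Of the 8, those at Nrcam, Ski and Pecam1 overlapped SMAD2/3 and the others did not. The 3 highest lost regions with no gene had 208 and 163 on chromosome 19 and 135 on chromosome 16, and each of the 3 overlapped SMAD2/3. Such overlap is common at high regions: in the highest quintile of untreated height 1448 regions overlapped SMAD2/3 and 1374 did not.

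Of the 9 gained regions of height 75 or more, 6 had no gene listed and 2 were promoter-proximal. Gained regions listed at a gene were mostly promoter-proximal, 2074 against 917 elsewhere at a gene, and so were the highest of them. Refbp2 (Alyref2), an RNA export factor gene, had a region of 138 over its 5′ end (chromosome 1, 173433131 to 173434533) with 607 ChIP and 69 input tags. Etl4 had 133, far from the 5′ end, at a site that overlapped SMAD2/3 in untreated cells, and Serping1, which encodes the C1 inhibitor, had 77.3. The next 5 fell to between 55.8 and 57.7: Trim63 (a muscle ubiquitin ligase), Snrpb (a spliceosome core protein), the shared promoter of Eif2b1 and Gtf2h3, Psmg3 (a proteasome assembly chaperone) and Ddx46 (a splicing helicase). Of these 8 top gained regions at genes, 6 were promoter-proximal, and that at Psmg3, like that at Etl4, overlapped SMAD2/3. The 3 highest gained with no gene had 165 on chromosome 9 and 127 each on chromosomes 4 and 11.

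The highest kept regions at genes were chosen by the mean of their 2 percentile ranks, so high ranks in both lists follow from the choice. Gse1, Cbfa2t2, Ubxn11, Tet3, Ski, St5 and Bcl2l1 ranked between 99.8 and 100 in both lists. Cbfa2t2, an ETO family corepressor gene, had heights of 1211 and 784 with 4566 and 2609 ChIP tags against 27 and 18 input tags, and Tet3, a DNA demethylation enzyme gene, had 956 and 637. St5 alone of these 7 was higher with SB, 707 and 794. The region listed for Mir715 on chromosome 17 had the largest value with SB (1989 and 3103), but also 4150 and 4840 input tags. The highest kept region with no gene (chromosome 2, 154251723 to 154254310) had 2861 and 1666 with 107 and 125 input tags.

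Heights of the 11215 kept pairs, each the other's greatest overlap, ranked alike in the 2 libraries. Spearman's rho over pairs was 0.746, against 0.459 for the background heights of the same pairs. Pairs share their place in the genome, with its mappability, openness and base composition, and so are not independent. Of the 500 highest pairs in each list 351 were shared (70.2%). Summits lay a median of 10 bp apart, with 90.0% within 50 bp, and the median width ratio was 1.01. The median pair moved by 11.2 rank points in either direction. With SB the rank was lower by at least 25 points in 1270 pairs (11.3%) and higher by at least 25 in 1092 (9.74%).

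Promoter-proximal pairs ranked higher with SB. Over 2100 such pairs the median shift was 10.1 points, 22.1% rose by at least 25 points and 4.19% fell by as much. The median shift was -0.58 over pairs elsewhere at genes and -0.22 over pairs with no gene. The promoter-proximal pairs also gained background, from a median height of 3.16 to 4.396, and width, from 686.5 to 825.5 bp. The part of background in the shift was not tested. Pairs with SMAD2/3 had a median shift of 0.22 and pairs without it 1.46, but in each of the 5 quintiles of untreated height the order was the other way. In the lowest quintile the medians were 23.3 with and 11.4 without SMAD2/3, in the middle one 0.64 and -2.65, and in the highest -0.17 and -2.72.

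**Figure D4:**
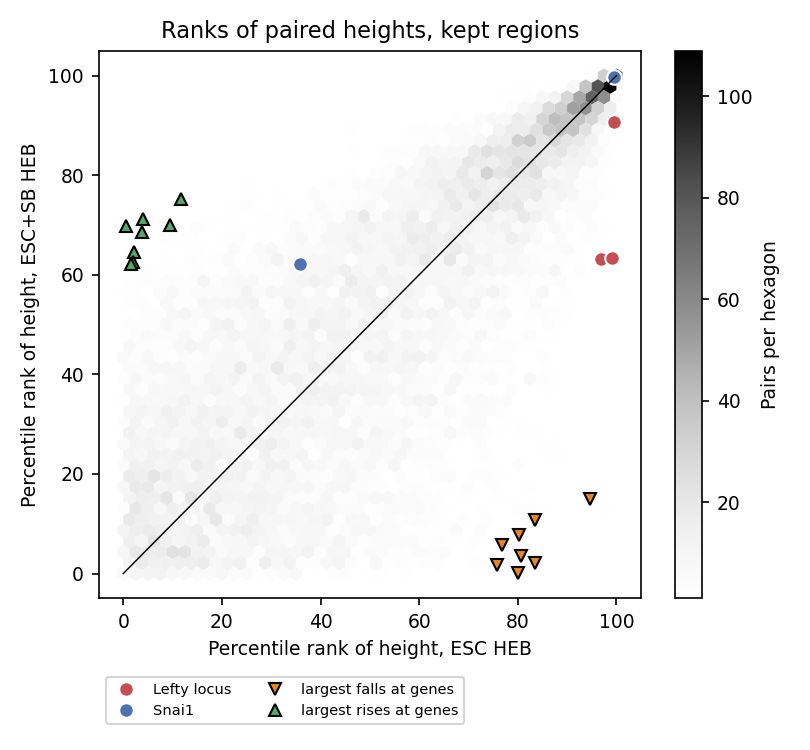
Percentile rank of each kept pair's height in ESC HEB (x) and ESC+SB HEB (y), with pairs per hexagon in grey and the line of equal rank. Lefty locus regions (red) reach ranks of 90.8, 63.3 and 63.3 with SB, Snai1 regions (blue) 99.7 and 62.2, and triangles mark the 8 genes with the largest falls and the 8 with the largest rises among pairs of 1 region with 1 region.

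Several of the largest shifts were at regions divided differently in the 2 lists. In 449 pairs (4.00%) a region of 1 list met several of the other. At Neat1, a long noncoding RNA gene, the pair fell from 136 to 30.1 (ranks 92.4 and 5.17), yet a second region with SB over the same untreated region had 136. Mllt6 and Mtss1 had such second regions of 136 and 92.3. Of the 8 largest rises, those at Sema4c (28.1 to 191), Igf2bp1, Bcar3, Hsp90ab1, Rbm47 and Meis1 (35.3 to 112) joined regions that were separate without SB. At Sema4c the other of them already had 139, and at Meis1 86.9. A shift at such a region depends on which of its parts is paired.

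Among the 10766 pairs of 1 region with 1 region, 11.4% fell and 9.60% rose by at least 25 points, and the 8 largest shifts each way were taken after the split pairs were seen. Falls were at Col16a1 (89.9 to 28.9, ranks 83.5 to 2.08), Zmiz1, Spsb1 (159 to 33.8, ranks 94.6 to 14.9), Trem2, Egln3, 2310046K01Rik, Plcb4 and Sorcs2. Col16a1 encodes a collagen, Spsb1 a ubiquitin ligase adaptor and Egln3 an oxygen-sensing prolyl hydroxylase. All 8 lay beyond 1 kb from the 5′ end, and Spsb1 and Egln3 overlapped SMAD2/3. Spsb1 had 484 and 120 ChIP tags against 29 and 16 input tags. Rises were at Fam176a (28.1 to 62.9), Myst3 (Kat6a, a histone acetyltransferase, 29.0 to 64.4, ranks 4.04 to 71.3), Nfix, the shared promoter of 5930434B04Rik and Adamts13, Snord49a and Snord49b, Hsph1 (a heat shock protein), Sct and Nup54. All but Nfix were promoter-proximal.

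Genes were then followed by role. Of 7224 genes listed by the authors for a region in either list, 4089 (56.6%) had at least 1 kept region, 392 (5.43%) had only lost regions and 2048 (28.3%) only gained ones. Over 12 gene lists with 230 members, 112 had a kept region, 7 only lost and 33 only gained regions, 14 had another mix and 64 had no region. With a minimum height of 40 only 5 members had solely gained and 3 solely lost regions, and with no minimum 13 had solely lost ones.

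Among Nodal and activin ligands and their antagonists 7 of 11 were listed, with 3 kept, 2 only lost and 1 only gained. Nodal itself kept its region 674 bp from the 5′ end (chromosome 10, 60878205 to 60880046) at 154 and 135, rank 94.3 in both. Its region over the 5′ end (60880551 to 60882352, height 30.6), at the promoter printed above, was lost. Gdf3, a Nodal-related ligand, went from 71.6 to 59.7 and from rank 75.2 to 66.6. Fst, the gene of the activin-binding protein follistatin, had 1 lost region of 28.2, and Inhbb, an activin subunit gene, had 1 gained region of 28.5. The Lefty1 pair shifted by -8.70 points, with heights of 449 without and 110 with SB. Pairs in the highest quintile of untreated rank had a median shift of -0.74 points, with quartiles of -7.60 and 2.09, and 8.56% of them fell by at least 25. The Fst, Inhbb and Lefty2 regions all lay within 2 units of the minimum.

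Among receptors and SMADs 8 of 12 were listed, with 5 kept and 2 only gained, and no pair shifted by 25 points. Tdgf1 (its protein, Cripto, is a co-receptor for Nodal) had 195 and 176 over its 5′ end (chromosome 9, 110848482 to 110850923), ranks 96.5 and 96.9. Cfc1, which encodes the related co-receptor Cryptic, went from 101 to 55.9 and from rank 86.9 to 62.0. Acvr1b, the activin type I receptor gene, had 58.6 and 58.4, and Smad3 had 44.4 and 43.6. Foxh1, which encodes a SMAD partner factor, went from 58.1 to 73.0 and from rank 64.7 to 77.7. Acvr1c and Acvr2b, other receptor genes, had gained regions of 28 and 29.8.

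Among feedback genes and corepressors 10 of 11 were listed, with 7 kept, 1 only lost and 2 only gained. Ski had 5 kept and 2 lost regions, all overlapping SMAD2/3. Its highest (154537212 to 154538570, chromosome 4) had 976 and 552 at ranks of 99.9 and 99.8, another had 401 and 236, and lost ones had 101 and 40.4. A weaker region of Ski went from 52.9 to 30.9, ranks 59.2 to 7.29. Pmepa1, which encodes a membrane protein that retains SMAD2 and SMAD3, had 5 kept and 4 lost regions, all over SMAD2/3. Its highest went from 110 to 53.8 and from rank 88.7 to 59.0, and the lost ones had 28.9 to 48.5. Smad7, the inhibitory SMAD gene, kept its promoter region at 46.4 and 45.5, gained a region of 40.8 and had a region 12697 bp from the 5′ end that went from 28.1 to 53.9. Tgif2, a corepressor gene, went from 31.5 to 59.1 over its 5′ end, ranks 13.3 to 66.0. Trim33 had 1 lost region of 36.7, and Bambi and Smurf1 had gained regions of 34.9 and 31.4. The highest untreated region thus ranked lower with SB at Pmepa1, level at Ski and higher at Tgif2. At Smad7 it went from rank 49.6 to 44.1, while the weaker region went from 0.517 to 59.2. A second Tgif2 region went from rank 12.5 to 4.66. Both rises began in the lowest quintile of untreated rank, where 26.3% of all pairs rose by at least 25 points.

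Pluripotency genes mostly kept HEB, at 14 of 18 listed, with a median shift of 1.74 points over 42 pairs. At Esrrb, whose orphan nuclear receptor sustains naive pluripotency, there were 12 kept and 2 lost regions, with the highest at 533 and 543. Tfcp2l1 went from 139 to 175, Nanog from 129 to 136 (ranks 91.7 and 94.4), Pou5f1 from 115 to 110 (89.6 and 90.7) and Tdh from 180 to 146. Dppa5a was the only member with lost regions alone, at heights of 30.4 over the 5′ end and 48.1 beside it, and both overlapped SMAD2/3. At Tbx3 a pair went from 140 to 35.6, but the same untreated region held a second region of 127 with SB. Of the 42 pairs 3 fell and 2 rose by at least 25 points.

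Definitive endoderm genes kept HEB in 12 of 13 listed, and Cxcr4, a chemokine receptor gene, had 1 gained region of 29.4. Lhx1 had 111 and 99.2, Sox17 97.6 and 84.1 (ranks 86.1 and 83.2), Gata6 78.9 and 125 (79.1 and 93.2) and Gata4 69.4 and 78.7. The median shift was 3.16 points over 18 pairs and -0.77 over the 13 pairs of 1 region with 1 region. At Eomes, a T-box gene that acts early in endoderm, 152 with SB stood over 2 untreated regions of 42.5 and 107 that were listed as 1 with SB. Mesoderm genes kept HEB in 11 of 14, with Wnt3 (28.1) only lost. Evx1 went from 75.2 to 88.6 and Hand2 from 77.8 to 100.1. Wnt3a, a signalling ligand gene of the primitive streak, went from 59.1 to 29.7 (ranks 65.7 to 4.28) at a region overlapping SMAD2/3, the largest fall on that list.

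Neuroectoderm genes kept HEB in 18 of 19 listed, and the last, Zic5, had a region over an untreated region below 28. Over 46 pairs the median shift was 5.997 points, 9 pairs rose by at least 25 points and 0 fell by as much, against 9.74% and 11.3% of all pairs. Promoter-proximal pairs of any gene had a median shift of 10.1 points, and 22.1% rose and 4.19% fell by as much. The neuroectoderm pairs were not split by location, so a trait of these genes cannot be told from one of promoters. Pax7 went from 244 to 286, Otx1 from 180 to 256, Nes from 183 to 158, and Zic2 from 104 to 133 at its 5′ end. Zic1, a zinc finger gene, went at its promoter from 38.7 to 60.8 (ranks 34.0 to 68.0), and Neurog2, a proneural bHLH gene, from 34.9 to 53.1. Among the 36 of these pairs with 1 region on each side, 7 rose and 0 fell.

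HEB regions at genes of its own family were kept in 9 of 14 listed (64.3%), with 4 only gained (28.6%). These shares lay near those of all listed genes, 56.6% and 28.3%. Tcf12, which encodes HEB, had 1 gained region of 33.9 over its 5′ end (chromosome 9, 71958374 to 71960107). Id1, which encodes an E-protein inhibitor and is a classic BMP target gene, went from 259 to 346 at ranks of 98.1 and 99.4, Id3 from 77.3 to 164 (78.2 and 96.4) and Id2 from 51.4 to 67.8 (57.3 and 74.2). Id4 had a gained region of 32.9, Ascl2 of 37.1 and Tcf21 of 33.4. A second Id1 region, 1071 bp from the 5′ end, went the other way, from 218 to 134 (ranks 97.2 and 94.2). Both Id1 regions overlapped SMAD2/3, and the Id2 and Id3 regions did not. Bhlhe40, a bHLH repressor gene, kept 57.8 and 58.7.

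Polycomb complex genes kept HEB in 11 of 14, with Rbbp4 only lost (32.1) and Suz12 (29.6) and Phf1 (28.1) only gained. Bmi1 went from 259 to 339, Cbx8 from 239 to 329 and Cbx7 from 94.1 to 106 (a pair for which only the region with SB is listed at the gene). Eed, a core PRC2 subunit gene, went from 57.9 to 35.8 and from rank 64.5 to 20.5. Among 8 listed BMP pathway genes 5 were only gained, 62.5% against 28.3% of all listed genes. They were Bmpr1a at 40.2 away from the 5′ end, Smad1 at 36.4, Bmpr1b at 30.7, Bmp2 at 30.5 and Bmpr2 at 29.2. Bmp7 kept 70.6 and 74.6. Among 22 listed Wnt genes 14 were kept (63.6%) and 6 only gained (27.3%), near the 56.6% and 28.3% of all listed genes. The only gained ones were led by the co-receptor gene Lrp6 (45.9) and by Ctnnb1, the beta-catenin gene (41.7). Axin2, Apc, Fzd2 and Sp5 had 31.4 to 37.0, while Sfrp1 (32.4) was only lost. Wnt5a (129 and 115), Tcf7l1 (94.7 and 105), Wnt5b (93.1 and 70.2) and Fzd5 (90.9 and 74.6) led the kept ones.

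Ribosomal protein genes, which are active in every growing cell, held many gained promoter regions. Of 20 listed, 7 were kept (35%), 10 only gained (50%) and 0 only lost. The shares over all listed genes were 56.6%, 28.3% and 5.43%. Rpl8 had the highest gained region, 50.0, over its 5′ end (chromosome 15, 76734287 to 76734746) with 143 ChIP and 31 input tags, followed by Rpl10a at 44.4. The others, Rps19, Rpl37, Rpl12, Rpl11, Rpl14, Rps14, Rps6 and Rpl13, had 28.5 to 35.9. Among kept members Rpl5 went from 58.0 to 77.4, Rpl18 from 50.5 to 73.0 and Rpl27 from 34.5 to 55.5. All 10 gained regions lay over the gene's 5′ end, and of all gained regions listed at a gene 2074 were promoter-proximal and 917 were not.

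**Figure D5:**
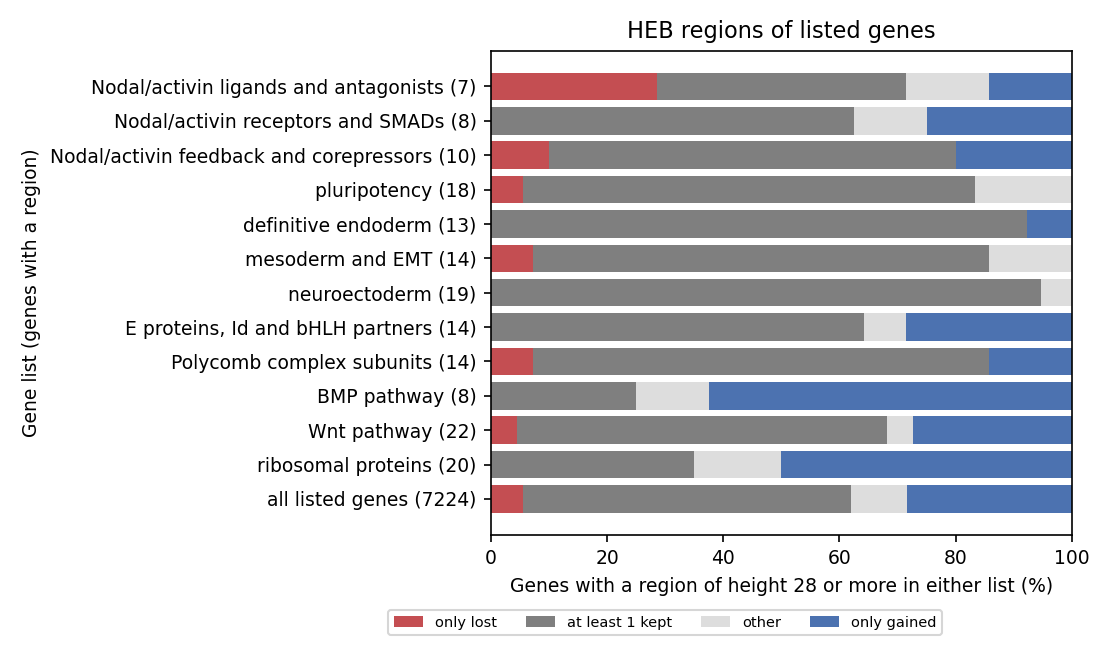
Percent of genes of each list whose regions of height 28 or more were only lost (red), kept at least once (dark grey), another mix (light grey) or only gained (blue), with the number of listed genes in brackets and all 7224 listed genes in the lowest bar. Neuroectoderm and definitive endoderm genes are kept at 18 of 19 and 12 of 13, against 56.6% of all listed genes. The BMP and ribosomal lists have the largest blue parts, at 5 of 8 and 10 of 20, against 28.3% of all.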

How the data were processed

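HEB and SMAD2/3 ChIP-seq gave 6 region lists, and 2 of them, ESC HEB and ESC+SB HEB, were compared here. Sequencing data were processed with CASAVA 1.8.2 and placed on mm9, per the submitters' processing notes; the sources used here do not name the aligner, the peak caller or the gene models. Per the file headers, each deposited region has a peak height for ChIP and for input (a signal with no stated scaling), ChIP and input tag counts, and a tag enrichment. The enrichment is not always the plain ratio of these counts: the Lefty1 region with SB, with 271 ChIP and 5 input tags, is listed at 40.2. The authors repeat a region once per listed gene, and each region was used once.

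Overlaps of at least 1 bp were computed in Python 3.11.15 with numpy 2.4.6, pandas 2.3.3 and scipy 1.17.1, drawn with matplotlib 3.10.9, and checked with bedtools 2.31.1, which gave the same 11426 kept regions. The overlap, pairing and rank steps were tested on simulated data. With 1 ChIP library per group there are no replicates, so no test was run.

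Named genes are Lefty1, Lefty2 and Snai1, the 8 genes with the highest lost, kept and gained regions, the 8 largest rank falls and rises at genes, and members of 12 gene lists with only lost, only gained or their highest kept regions. Other genes were chosen after their values were seen, and some results are not reported here. Members and lists were chosen with earlier results of these data known. Of 7521 gene names 7457 (99.1%) matched RefSeq. Alternatives were another height minimum, overlap, list length and measure, and, added after seeing the data, pairs of 1 region with 1 region only.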

Additional observations from a re-analysis of the deposited data

How the results depend on the processing

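No paired analysis was possible because each group has 1 ChIP library. The share of untreated regions kept, 81.0%, was 79.6% with a minimum height of 40, 75.6% with lists of equal length, 74.8% with no minimum and 75.4% with tag enrichment in place of height. The gained share, 23.8%, was 4.03% at 40, 17.4% with equal length and 9.15% with tag enrichment. The promoter-proximal share of gained regions, 51.9%, was 57.4% at 40, 54.0% with equal length and 29.6% with tag enrichment, and that of lost regions, 6.29%, was 7.76% with equal length and 8.10% with no minimum. The SMAD2/3 share of lost regions, 10.8%, was 19.6% at 40, 8.56% with no minimum and 14.6% with tag enrichment. Spearman's rho of kept pairs, 0.746, was 0.738 at 40, 0.752 with no minimum, 0.774 with tag enrichment and 0.745 over pairs of 1 region with 1 region. Of the gene list members, 5 in place of 33 had only gained regions at 40, and 3 at 40 or 13 with no minimum, in place of 7, had only lost ones. The cause of these differences was not tested, beyond fewer regions entering at 40. Asking for an overlap of at least 50% of the shorter region moved none of these values beyond its interval. With no replicates, the spread between cultures is unknown, and low regions near the minimum are the least certain.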
